A study of Mus musculus with 32 samples.

Results

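The expression of 10 genes of the canonical Wnt pathway was examined in Lgr5-EGFP+ cells sorted from colonic organoids, with and without muscarinic stimulation. The genes were chosen by name among the 23517 genes of the mouse count table: the receptors Lgr4 and Lrp6, the feedback inhibitors Axin2, Rnf43, Znrf3 and Nkd1, the transducer Ctnnb1, the nuclear factors Tcf7 and Tcf7l2, and the target Myc. The cells came from colonic organoids of Lgr5-EGFP-IRES-CreERT2 mice, grown from proximal colon. In these mice EGFP and an inducible Cre are knocked into the Lgr5 locus, and the organoids were sorted for Lgr5-EGFP+ cells. Organoids of each mouse were either left untreated or given 250 nM bethanechol (Bch), a muscarinic agonist that does not distinguish between receptor subtypes, for 4 days. Both arms of every mouse had been kept in L-WRN conditioned medium, which supplies Wnt3a, R-spondin 3 and Noggin, so every group carried the same reporter allele and had been given the same Wnt ligand. Mice were described only as matched for age and sex.

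There were 8 mice in 2 sets of 4. The mice BR1-BR4 were labelled male, their source was given as sorted Lgr5+ cells and their RNA was isolated with the RNAeasy Plus Micro Kit. The mice BR7-BR10 carried no sex label, although the design text names 4 female besides 4 male organoid cultures. Their source was given as colonic organoids and their kit as the RNAeasy Mini Kit, so that sex, source label and kit cannot be told apart between the sets. The 2 technical replicates of each mouse and treatment were summed, which turned 32 libraries into 16 sums. Each sum held 557512 (untreated cells of mouse 3) to 4050342 UMIs (Bch-treated cells of mouse 8), and 2361 to 13114 cells had been sorted for it. Levels are UMI counts scaled to a common library size by TMM, in CPM. Because 1 UMI stands for 1 captured 3′ end, they were not divided by transcript length and are compared only within a gene.

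Canonical Wnt signalling keeps stem cells of the colonic crypt dividing. Wnt ligands bind a Frizzled receptor together with Lrp6, which halts the destruction complex and lets β-catenin, the product of Ctnnb1, reach TCF factors in the nucleus and switch on target genes. Several targets restrain the pathway in turn. Axin2 rebuilds the destruction complex, Rnf43 and Znrf3 are ubiquitin ligases that remove Frizzled from the surface, and Nkd1 acts on Dishevelled, while R-spondin bound to Lgr4 or Lgr5 clears Rnf43 and Znrf3.

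The sorted cells carried epithelial and stem cell markers. The summed level of 6 epithelial genes (Epcam, Cdh1, Krt8, Krt18, Vil1 and Cldn7) lay between 5586 and 7140 CPM in every sum, and that of 9 stem cell genes between 544.0 and 915.0 CPM. Lgr5 itself, whose locus drives the sorted reporter, was found at 12.4 to 38.6 CPM. Goblet cell genes were abundant in the same sums, at 3472 to 13958 CPM over 8 genes. Fibroblast markers stayed at or below 8.37 CPM and 94.3% of their UMIs were Vim, while Col1a1 was at 0 in 2 of the 4 groups and Lum in 3. The immune list summed to 58.9 to 113.7 CPM, with 99.1% of its UMIs from Cd14, and Cd79a had 0 UMIs in 3 groups. The fibroblast genes Col1a2, Col3a1, Dcn and Pdgfra and the T cell gene Cd3e were not among the genes of the mouse count table. The sums therefore cover 3 of 7 fibroblast and 5 of 6 immune genes.

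All 10 genes were detected, at very different depths. Over the 16 sums, Myc had 4478 UMIs and Ctnnb1 3517, against 240 for Nkd1, 213 for Tcf7 and 162 for Znrf3. The other 5 genes had 594 (Tcf7l2) to 985 UMIs (Axin2). Values of Nkd1, Tcf7 and Znrf3 therefore rest on few molecules, down to 1 UMI of Nkd1 in Bch-treated cells of mouse 7. For each gene, the counts of the 2 technical replicates differed by less than 2 standard deviations of counting error in every sum with a UMI, which were all 16 sums other than for Tcf7, with 15.

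**Figure D1:**
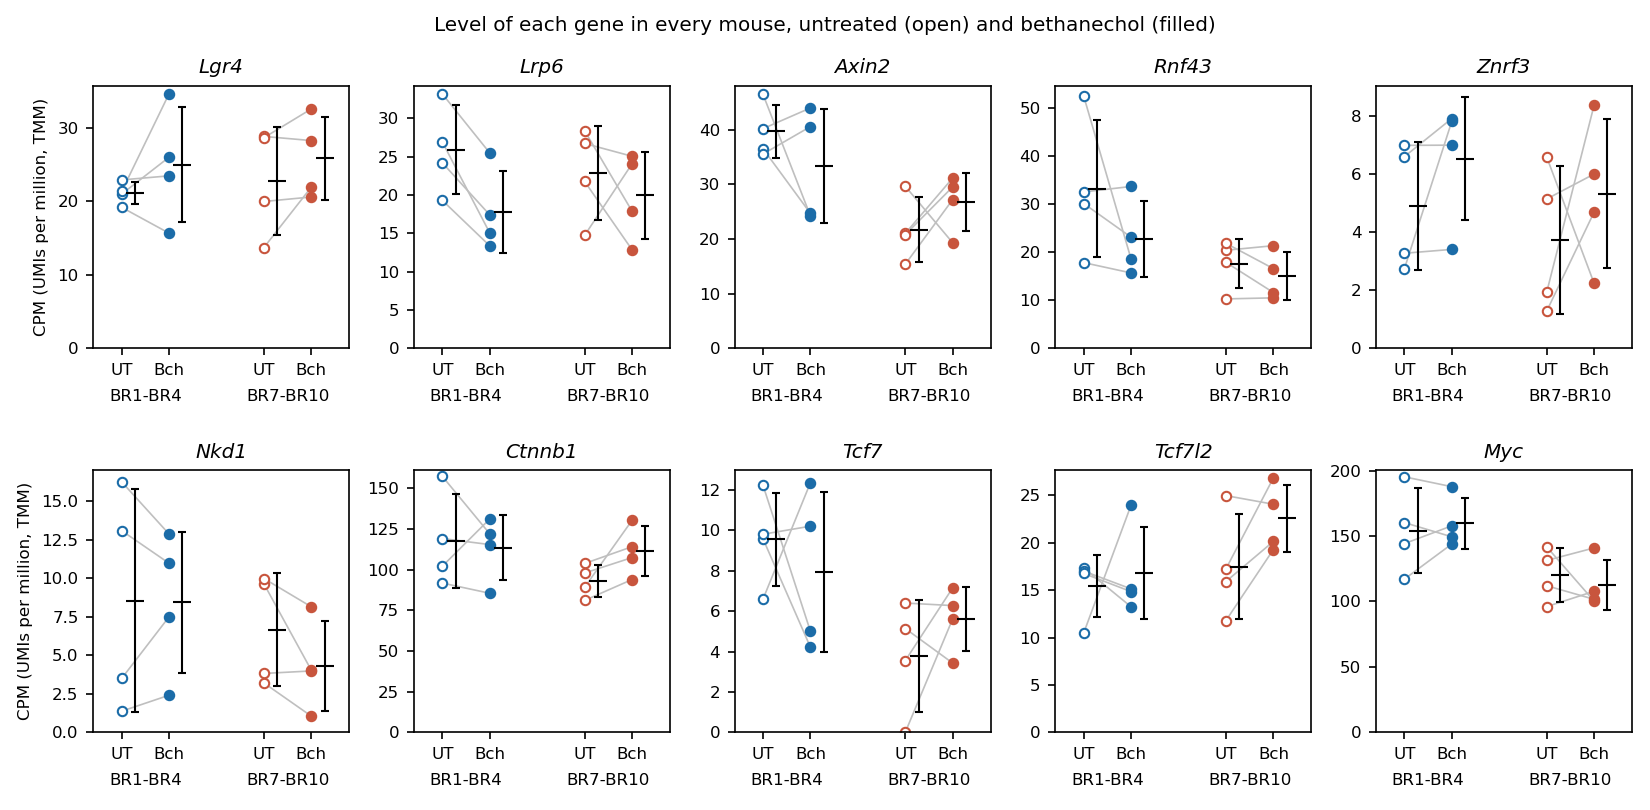
Level of each of the 10 genes (vertical axis, TMM-scaled CPM) in every mouse, for untreated (UT, open points) and Bch-treated (filled points) cells of mice BR1-BR4 (blue) and BR7-BR10 (red). Grey lines join the cells of 1 mouse and black bars give the mean and SD of 4 mice. Untreated Axin2 lies between 35.5 and 46.4 in BR1-BR4 and between 15.4 and 29.6 in BR7-BR10.

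No member of the group passed the threshold in response to Bch. In BR7-BR10, 9 of the 10 genes could be tested with edgeR's quasi-likelihood test within mice, 0 had an adjusted p under 0.05 and 0 an unadjusted p under 0.05, where 0% and 3.78% of the 9515 tested genes did. In BR1-BR4 all 10 were tested, 0 passed the adjusted threshold and 1 gene, Lrp6, the unadjusted one, where 0.021% and 7.72% of 9509 genes did. Their median log2 fold change was 0.26 in BR7-BR10 and -0.01 in BR1-BR4, beside medians of 0.00 over all tested genes. The 95% intervals had a median width of 1.01 in BR7-BR10 and 0.95 in BR1-BR4 on the log2 scale, the narrowest being that of Myc in BR1-BR4 (-0.17 to 0.26) and the widest that of Tcf7 in BR7-BR10 (-0.37 to 1.66). The cells were measured in bulk, where fewer cells of a type and less RNA per cell cannot be told apart.

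**Figure D2:**
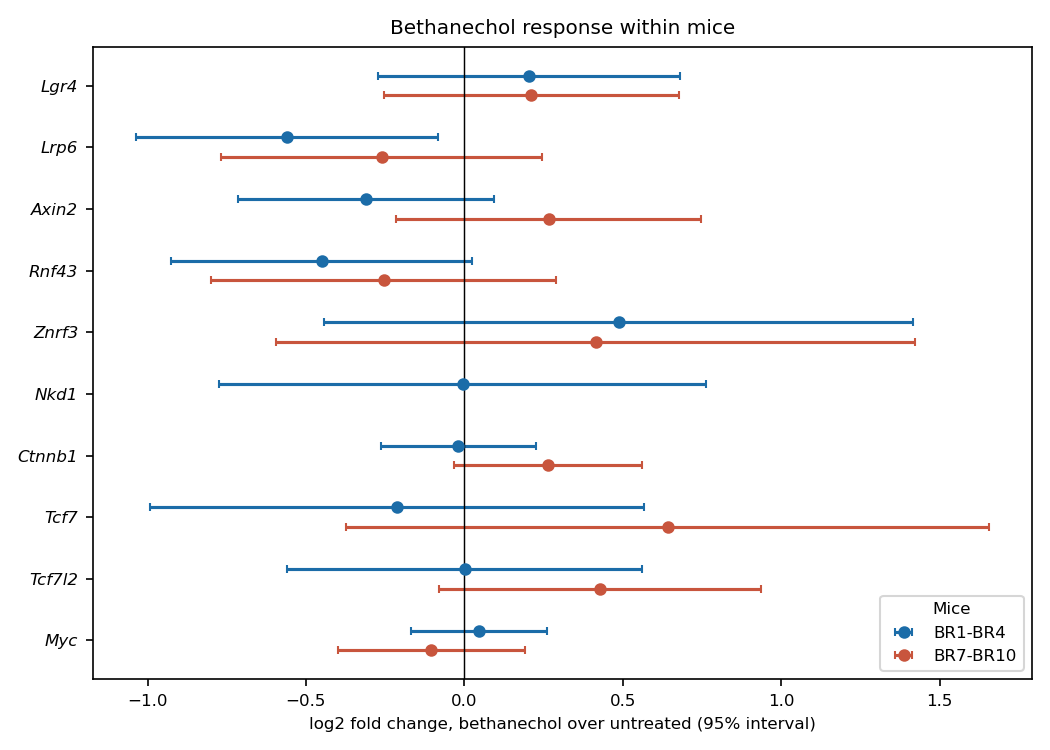
Log2 fold change of Bch-treated over untreated cells (horizontal axis) for each gene, fitted within mice by edgeR, in BR1-BR4 (blue) and BR7-BR10 (red). Points are estimates and bars 95% intervals. Every interval includes 0 other than that of Lrp6 in BR1-BR4, which runs from -1.04 to -0.08, and Nkd1 was not tested in BR7-BR10.

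Of the 2 receptors among the members, Lrp6 gave the lower p in BR1-BR4. Lrp6, the co-receptor that carries the Wnt signal across the membrane (chr6:134446476-134566965, minus strand, GRCm38), was found at 26.9, 24.2, 33.2 and 19.3 CPM in untreated cells of mice 1, 2, 3 and 4 and at 15.0, 17.4, 25.5 and 13.4 CPM after Bch. It was lower in each of the 4 mice, although the ranges overlapped. The log2 fold change was -0.56 ± 0.24 (SE), or 0.678-fold, with an adjusted p of 0.564 by edgeR. Over all tested genes, 6.86% were lower in each of these 4 mice. In BR7-BR10, Lrp6 went from 14.7, 26.7, 28.4 and 21.8 CPM to 24.1, 25.1, 17.9 and 12.9 CPM in mice 7, 8, 9 and 10. Mouse 7 was higher with Bch and the other three lower, with a log2 fold change of -0.26 ± 0.25 (adjusted p = 0.999). Over the 8 pairs, Lrp6 was higher in 1 mouse, with a log2 fold change of -0.41 ± 0.17 and an adjusted p of 0.903. There, Lrp6 and Rnf43 were the 2 of 10 members with an unadjusted p under 0.05, beside 5.4% of 10280 genes, and 0 members, as 0% of genes, passed the adjusted threshold.

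Lgr4 (chr2:109917647-110014257, plus strand), which binds R-spondins, passed the threshold in none of the comparisons. Untreated cells held 19.2, 22.9, 21.0 and 21.3 CPM in mice 1 to 4 and 28.8, 28.6, 13.7 and 20.0 CPM in mice 7 to 10. After Bch, the levels were 15.6, 23.4, 26.0 and 34.6 CPM in mice 1 to 4 and 28.2, 32.6, 21.9 and 20.6 CPM in mice 7 to 10. The ranges of all 4 groups overlapped. The log2 fold change of Bch was 0.21 ± 0.24 in BR1-BR4 and 0.21 ± 0.23 in BR7-BR10, with 95% intervals of -0.27 to 0.68 and -0.25 to 0.68.

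Axin2, the scaffold of the destruction complex and a widely used readout of Wnt activity (chr11:108920349-108950783, plus strand), was the member that passed the threshold between the untreated sets, though not with either technical replicate alone. Untreated cells of mice 1, 2, 3 and 4 held 36.5, 46.4, 40.2 and 35.5 CPM, and those of mice 7, 8, 9 and 10 held 15.4, 21.0, 20.8 and 29.6 CPM. Every mouse of BR7-BR10 lay below every mouse of BR1-BR4, as for 3.44% of the genes tested between the untreated sets. After Bch, the levels were 24.7, 24.2, 44.0 and 40.6 CPM in mice 1 to 4 and 27.2, 31.2, 29.5 and 19.3 CPM in mice 7 to 10, and the sets overlapped. Within mice, Axin2 was higher with Bch in mice 7, 8 and 9 and lower in mouse 10, by log2 ratios of 0.79, 0.55, 0.49 and -0.60. In mice 1 and 2 it was lower, by log2 ratios of -0.55 and -0.91, and in mice 3 and 4 slightly higher, at 0.13 and 0.19. The fitted responses were 0.27 ± 0.24 in BR7-BR10 (adjusted p = 0.999) and -0.31 ± 0.20 in BR1-BR4 (adjusted p = 0.786), neither past the threshold. Their difference, tested as an interaction, was 0.57 on the log2 scale with a 95% interval of -0.08 to 1.21 and an adjusted p of 1. It ranged from 0.34 without mouse 2 to 0.93 without mouse 10. For 0 of the 10 members did the responses of the sets differ at an unadjusted p under 0.05, beside 4.39% of all genes tested for the interaction.

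The DNA before the start of a Wnt target often carries the core letters bound by TCF factors, and 2 windows are shown, for genes whose mean level was lower in untreated BR7-BR10 than in BR1-BR4: the member Axin2, and Sp5 because it holds these letters, although it did not pass the threshold there (adjusted p = 0.160). Each is the 250 bases upstream of an annotated start site, from RefSeq on GRCm38.p6, read in the direction of transcription: Axin2 at chr11:108920099-108920348 (plus strand) and Sp5, a transcription factor gene of the list of crypt targets, at chr2:70474673-70474922 (plus strand). Capitals mark CTTTGA or CTTTGT on either strand.
Axin2: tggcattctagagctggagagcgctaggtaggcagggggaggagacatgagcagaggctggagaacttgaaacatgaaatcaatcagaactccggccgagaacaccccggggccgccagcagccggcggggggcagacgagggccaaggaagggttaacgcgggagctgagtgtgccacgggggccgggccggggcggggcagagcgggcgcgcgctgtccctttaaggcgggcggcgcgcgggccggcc
Sp5: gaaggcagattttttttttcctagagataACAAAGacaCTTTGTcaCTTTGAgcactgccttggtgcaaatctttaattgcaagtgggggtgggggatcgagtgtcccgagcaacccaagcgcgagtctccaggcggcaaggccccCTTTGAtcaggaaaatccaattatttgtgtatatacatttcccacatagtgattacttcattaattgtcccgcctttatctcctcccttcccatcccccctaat
The Sp5 window held CTTTGA 2 times and CTTTGT 2 times, counting both strands. That of Axin2 held neither, which says only that these letters are not in these 250 bases. The windows of Ascl2 and Wnt3, list genes that passed the threshold between the untreated sets, also held neither. Ccnd1 and Csnk1a1, which passed there as well, had no window in the source used. Among 32851 such windows of all genes, 13.8% held CTTTGA, 16.5% CTTTGT and 27.6% either. The table had 11 windows for 7 of the 10 members, and 1 of the 11, a Tcf7l2 window, held CTTTGT while 0 held CTTTGA.

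The ubiquitin ligase gene Rnf43 (chr11:87662722-87735539, plus strand) stood at 17.8, 30.1, 52.4 and 32.5 CPM in untreated cells of mice 1 to 4 and at 10.2, 20.4, 21.8 and 17.8 CPM in those of mice 7 to 10. After Bch it stood at 15.6, 23.1, 18.5 and 33.6 CPM in mice 1 to 4 and at 10.5, 21.3, 16.6 and 11.6 CPM in mice 7 to 10. The highest value came from the shallowest sum, untreated cells of mouse 3, where it rested on 30 UMIs. The log2 fold change of Bch was -0.45 ± 0.23 in BR1-BR4 (adjusted p = 0.692) and -0.25 ± 0.27 in BR7-BR10 (adjusted p = 0.999). Over the 8 pairs it was -0.36 ± 0.18 (adjusted p = 0.905), and 3 of 8 mice had a higher level with Bch.

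Its relative Znrf3 (chr11:5276324-5444847, minus strand) was scarce, at 1.27 to 6.99 CPM in untreated and 2.24 to 8.37 CPM in Bch-treated cells, from 2 to 20 UMIs per sum. It was higher with Bch in 7 of 8 mice, by log2 ratios between 0.00 and 1.69 in those 7, and lower in mouse 9, at -1.24. Among the 7, mouse 3 at 0.00 and mouse 2 at 0.04 hardly changed. The log2 fold change over the 8 pairs was 0.45 with a 95% interval of -0.26 to 1.17 (adjusted p = 0.906). Nkd1 (chr8:88521354-88594884, plus strand) varied widely from mouse to mouse. Its untreated level was 1.37, 13.1, 3.49 and 16.2 CPM in mice 1 to 4 and 3.20, 3.82, 9.63 and 9.98 CPM in mice 7 to 10. With Bch, the same mice gave 2.41, 11.0, 7.50 and 12.9 CPM and 1.05, 3.98, 4.03 and 8.14 CPM. Mice 2, 4 and 10 had the highest levels of all mice, untreated and with Bch. In BR7-BR10 it did not pass the filter on low counts, and in BR1-BR4 the log2 fold change of Bch was -0.01, with a 95% interval of -0.77 to 0.76.

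Ctnnb1 (chr9:120929216-120960507, plus strand) was found at 104, 89.1, 97.9 and 81.0 CPM in untreated cells of mice 7 to 10 and at 114, 130.2, 107 and 93.9 CPM after Bch. It was higher with Bch in 4 of 4 mice, although the groups overlapped. The log2 fold change was 0.26 ± 0.15 (adjusted p = 0.999), and 5.78% of the tested genes were higher in each of these 4 mice. In mice 1 to 4 it stood at 91.7, 119, 157 and 102 CPM untreated and at 85.4, 115, 122 and 131 CPM with Bch, with a log2 fold change of -0.02 ± 0.12. Exons of Ulk4 lie on the opposite strand within the last 1000 bases of Ctnnb1. Whether counting used the strand is not given in the sources used here, so reads of the 2 genes may not be separated.

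The nuclear partner of β-catenin encoded by Tcf7 (chr11:52252371-52283014, minus strand) was found at 9.58, 9.81, 12.2 and 6.60 CPM in untreated cells of mice 1 to 4 and at 6.40, 0, 3.55 and 5.14 CPM in those of mice 7 to 10. Mouse 8 had 0 UMIs, which allows up to 1.91 CPM. The untreated sets did not overlap, with BR7-BR10 lower, as for 3.44% of the genes tested between them. Tcf7 rested there on 0 to 17 UMIs per sum in BR7-BR10. With Bch, Tcf7 stood at 4.21, 10.2, 5.00 and 12.4 CPM in mice 1 to 4 and at 6.28, 5.62, 7.16 and 3.43 CPM in mice 7 to 10, and the sets overlapped. The fitted responses were 0.64 with a 95% interval of -0.37 to 1.66 in BR7-BR10 and -0.21 with an interval of -0.99 to 0.57 in BR1-BR4. The log2 ratios of mice 7 to 10 were -0.02, 2.76, 0.85 and -0.47, that of mouse 8 being against its 0 UMIs. Without mouse 8, the fitted response of Tcf7 in BR7-BR10 was 0.14. Tcf7l2 (chr19:55741820-55933654, plus strand), the main TCF of the intestinal epithelium, stood at 17.3, 17.0, 10.5 and 16.8 CPM in untreated cells of mice 1 to 4 and at 25.0, 15.9, 17.2 and 11.8 CPM in those of mice 7 to 10. With Bch it stood at 13.2, 15.1, 24.0 and 14.8 CPM in mice 1 to 4 and at 24.1, 20.1, 26.8 and 19.3 CPM in mice 7 to 10. The untreated sets overlapped. The log2 fold change of Bch was 0.43 ± 0.25 in BR7-BR10 (adjusted p = 0.999) and 0.00 ± 0.28 in BR1-BR4.

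Myc (chr15:61985391-61990374, plus strand), the growth-promoting transcription factor, was measured most precisely in BR1-BR4. Its untreated level was 195, 160.3, 117 and 144 CPM in mice 1 to 4 and 96.0, 112, 131 and 142 CPM in mice 7 to 10. With Bch, it was 188, 149, 144 and 158 CPM in mice 1 to 4 and 108, 102, 141 and 100.3 CPM in mice 7 to 10. The untreated sets overlapped. With Bch, each mouse of BR7-BR10 lay below each of BR1-BR4, as it did for 3.92% of the genes tested between the treated sets. The response to Bch was 0.05 on the log2 scale with a 95% interval of -0.17 to 0.26 in BR1-BR4, and -0.10 with an interval of -0.40 to 0.19 in BR7-BR10.

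The untreated cells of the sets were compared next. In these, 1 of 9 tested members had an adjusted p under 0.05 and 4 an unadjusted one under 0.05, where 1.64% and 12.7% of 9159 tested genes did. All 4 were lower in BR7-BR10. Axin2 averaged 21.7 ± 5.90 CPM (SD, n = 4) in BR7-BR10 and 39.7 ± 4.94 CPM (SD, n = 4) in BR1-BR4, a log2 difference of -0.84 ± 0.23 (SE) or 0.559-fold, with an adjusted p of 0.0472. This p lay just inside the threshold. It was 0.0382 with DESeq2's Wald test, 0.0501 with DESeq2's size factors and 0.0777 and 0.0769 with the first and the second technical replicate alone, and without 1 mouse it ranged from 0.0146 (mouse 10) to 0.207 (mouse 2), staying under 0.05 only without mouse 10. The log2 difference itself lay between -1.06 and -0.71 over all fits without 1 mouse. Rnf43 differed by -0.81 ± 0.28 (adjusted p = 0.170), Tcf7 by -1.22 ± 0.49 (adjusted p = 0.241) and Myc by -0.39 ± 0.15 (adjusted p = 0.230), none past the threshold. Without mouse 1, Rnf43 had an adjusted p of 0.0404. Ctnnb1 differed by -0.32 ± 0.16, Nkd1 by -0.37 ± 0.57, Lrp6 by -0.14 ± 0.25, Lgr4 by 0.08 ± 0.26 and Tcf7l2 by 0.07 ± 0.29. Znrf3 did not pass the filter on low counts here. Axin2 and Tcf7 were the members without overlap between the untreated sets, both lower in BR7-BR10, as were 3.44% of all tested genes. These untreated sums also enter the comparisons with Bch, so the low untreated level of Axin2 in BR7-BR10 and its ratios to Bch there are not separate observations.

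The Bch-treated sets were compared after this was seen. Of 10 tested members, 1 passed the threshold, where 2.06% of 9639 genes did. Myc averaged 113 ± 19.1 CPM (SD, n = 4) in BR7-BR10 and 159.7 ± 19.5 CPM (SD, n = 4) in BR1-BR4, a log2 difference of -0.50 ± 0.14 (SE) with an adjusted p of 0.0430. It was 0.0606 with DESeq2's Wald test, 0.0528 and 0.0561 with the first and the second technical replicate alone and, without 1 mouse, between 0.0111 (mouse 9) and 0.167 (mouse 10), staying under 0.05 only without mouse 9. Axin2 differed by -0.30 ± 0.22 (adjusted p = 0.619), Rnf43 by -0.53 ± 0.27 (adjusted p = 0.382) and Tcf7 by -0.54 ± 0.40 (adjusted p = 0.616). The estimate farthest from 0 was that of Nkd1, at -0.89 ± 0.45 (adjusted p = 0.384), and Znrf3 stood at -0.37 ± 0.43 and Ctnnb1 at -0.03 ± 0.14. On the other side of 0 were Tcf7l2 at 0.41 ± 0.24 (adjusted p = 0.490), Lrp6 at 0.15 ± 0.26 and Lgr4 at 0.05 ± 0.23.

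**Figure D3:**
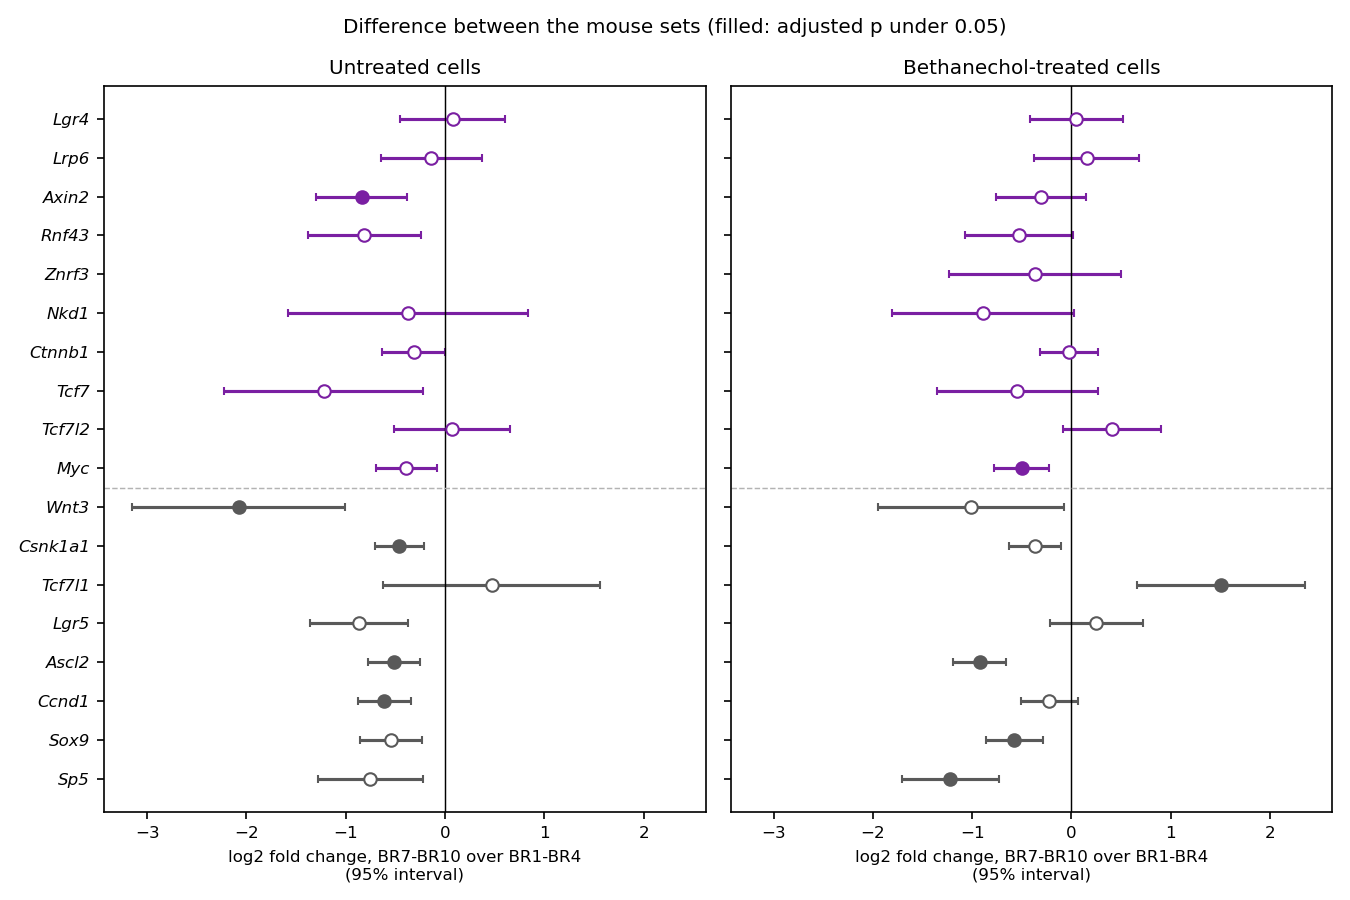
Log2 fold change of BR7-BR10 over BR1-BR4 (horizontal axis) in untreated cells (left) and Bch-treated cells (right), with 95% intervals, for the 10 members (purple, above the dashed line) and 8 other Wnt genes (grey). Filled points have an adjusted p under 0.05 by edgeR. Among the members these are Axin2 at -0.84 in untreated cells and Myc at -0.50 in Bch-treated cells.

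Further genes of the pathway were taken from lists of 123 genes by role, of which 97 were in the table and 61 to 67 passed the filter, depending on the comparison. In response to Bch, 0 of them passed the threshold in either set, with 3 of 63 under an unadjusted p of 0.05 in BR7-BR10, beside 3.78% of all tested genes, and 2 of 62 in BR1-BR4, beside 7.72%. The 2 were Lgr5, described below, and Smarca4, a chromatin remodelling ATPase, at -0.35 ± 0.10 on the log2 scale (adjusted p = 0.207). Between the untreated sets, 0 were higher and 4 of 61 lower in BR7-BR10 past the threshold, beside 1.64% of all tested genes in either direction, and at an unadjusted p under 0.05, 0 were higher and 13 lower, beside 6.66% higher and 6.05% lower among all tested genes. Their median log2 difference was -0.23, beside -0.02 over all tested genes. The number lower past the threshold was 0 without mouse 2, 1 without mouse 8, 2 without mouse 4 or 7 and 3 without mouse 3 or 9. Between the Bch-treated sets, 1 of 64 was higher and 3 were lower past the threshold, beside 2.06% of all tested genes in either direction.

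The 4 genes lower in untreated BR7-BR10 came from 3 roles. Among the crypt targets, 2 of 17 tested genes were lower past the threshold, beside 1.64% of all tested genes in either direction. Ccnd1, the cyclin of G1 phase, averaged 114 ± 13.0 CPM against 172 ± 14.4 CPM, a log2 difference of -0.61 ± 0.13 (adjusted p = 0.00885), and it passed whichever mouse was left out, other than mouse 2. Ascl2, the transcription factor that maintains intestinal stem cells, differed by -0.51 ± 0.13 (adjusted p = 0.0319), and was not called without mouse 1, 2, 4, 7 or 8. Of 2 tested genes of ligand production, Wnt3, the ligand of the crypt epithelium, differed by -2.08 ± 0.53 (adjusted p = 0.0252), from 2 to 9 UMIs per sum in untreated BR7-BR10 and 5 to 23 in BR1-BR4. It was not called with DESeq2's Wald test, with either technical replicate alone, or without mouse 2, 7, 8 or 10. Of 21 relay and destruction complex genes, Csnk1a1, the kinase that primes β-catenin for destruction, differed by -0.46 ± 0.12 (adjusted p = 0.0475), but was not called with DESeq2's size factors, with the first technical replicate alone, with no filter on low counts, or without mouse 2, 3, 4, 7, 8, 9 or 10. Tested receptors, 6 in number, were all below 0 with 0 past the threshold, Lgr5 being nearest at -0.87 ± 0.24 (adjusted p = 0.0592). The median of the receptors was -0.55, beside -0.02 over all tested genes. Lgr5 was called with the first technical replicate alone, with no filter on low counts and without mouse 7. Of 16 nuclear factors, 0 passed and 8 were above 0. Of the secreted or membrane inhibitors, 0 passed the filter in untreated cells.

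With Bch, 3 crypt targets were lower in BR7-BR10 past the threshold. Ascl2 averaged 208 ± 40.7 CPM in BR7-BR10 and 398 ± 19.6 CPM in BR1-BR4, a log2 difference of -0.92 ± 0.13 (adjusted p = 1.99e-05), and it still passed whichever mouse was left out. Sp5, whose upstream window is shown above, differed by -1.22 ± 0.24 (adjusted p = 0.00267) and also passed whichever mouse was left out. Sox9, a transcription factor of crypt base cells, differed by -0.57 ± 0.14 (adjusted p = 0.0199), and was not called with the first technical replicate alone or without mouse 2, 3, 4, 8 or 10. The 1 gene higher in BR7-BR10 was Tcf7l1, the mostly repressive member of the TCF family, at 2.83-fold (adjusted p = 0.0410), with 4 to 12 UMIs per sum in BR1-BR4, and it was not called with either technical replicate alone or without mouse 1, 2, 4, 7, 9 or 10. Between the same sums, 3 of 8 tested colonocyte markers and 3 of 8 goblet markers were higher in BR7-BR10 past the threshold. Over all tested genes, 2.06% passed in either direction. The median log2 differences of these markers were 1.17 and 0.80, and their part in the differences of the crypt targets and Tcf7l1 was not tested. In the interaction, 3 of 67 list genes were above 0 and 1 below 0 at an unadjusted p under 0.05, beside 4.39% of all tested genes, and 0 passed the adjusted threshold. Lgr5 did not pass the threshold for any comparison with Bch. Its log2 fold change was 0.49 ± 0.24 in BR7-BR10, higher in 4 of 4 mice, as were 5.78% of all tested genes. In BR1-BR4 it was -0.66 ± 0.22, higher in 1 of 4, and the interaction was 1.15 ± 0.32 with an adjusted p of 1. For Ascl2 the estimates had the opposite signs, at -0.32 ± 0.13 in BR7-BR10 (adjusted p = 0.999), lower in 4 of 4 mice as were 5.61% of all tested genes, and 0.12 ± 0.09 in BR1-BR4, with an interaction of -0.44 ± 0.16 (adjusted p of 1). The other two were Smarca4 at 0.57 ± 0.19 and Ccnd1 at 0.35 ± 0.17 (adjusted p of 1 for each). Zbtb33, the third list gene under an unadjusted p of 0.05 in BR7-BR10, stood at 1.00 ± 0.45 there (adjusted p = 0.999).

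Marker levels were compared between the same sets, and few single markers passed the threshold in untreated cells. The 9 stem cell genes (Lgr5, Ascl2, Smoc2, Cdca7, Olfm4, Slc12a2, Lrig1, Tnfrsf19 and Mex3a) summed to 657 to 669 CPM in untreated BR7-BR10 and to 737 to 915.0 CPM in untreated BR1-BR4, without overlap, and 41.2% of their UMIs were Ascl2. With Bch, they summed to 544.0 to 732 CPM and to 766 to 891 CPM. Colonocyte markers, 10 in number, had a mean sum of 1502 ± 416 CPM in untreated BR7-BR10 and 1081 ± 244 CPM in untreated BR1-BR4 (SD, n = 4), with overlapping ranges. All 8 tested ones were above 0 in the comparison of the sets. Of these, 1 was past the threshold, beside 1.64% of all tested genes in either direction. Goblet markers had mean sums of 6488 ± 2452 and 5319 ± 1122 CPM and enteroendocrine markers of 540.0 ± 273 and 286 ± 92.4 CPM, with overlapping ranges in both. Cycling markers had mean sums of 1073 ± 149.7 and 970.5 ± 121 CPM. Of tested genes, 7 of 8 goblet, 5 of 5 enteroendocrine, 7 of 8 cycling and 1 of 7 stem cell markers were above 0 between the untreated sets. Their median log2 differences were 0.48, 0.69, 0.10 and -0.33, and that of the colonocyte markers was 0.72, beside -0.02 over all tested genes. With Bch, colonocyte markers summed to a mean of 1579 ± 122 CPM in BR7-BR10 and 923 ± 393 CPM in BR1-BR4, and goblet markers to 7742 ± 4203 and 4571 ± 717 CPM, with overlapping ranges in both. Enteroendocrine markers summed to 516 ± 319 and 337 ± 145 CPM and cycling markers to 1034 ± 75.0 and 956 ± 188 CPM. The part of these differences in the lower Axin2 of BR7-BR10 was not tested.

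**Figure D4:**
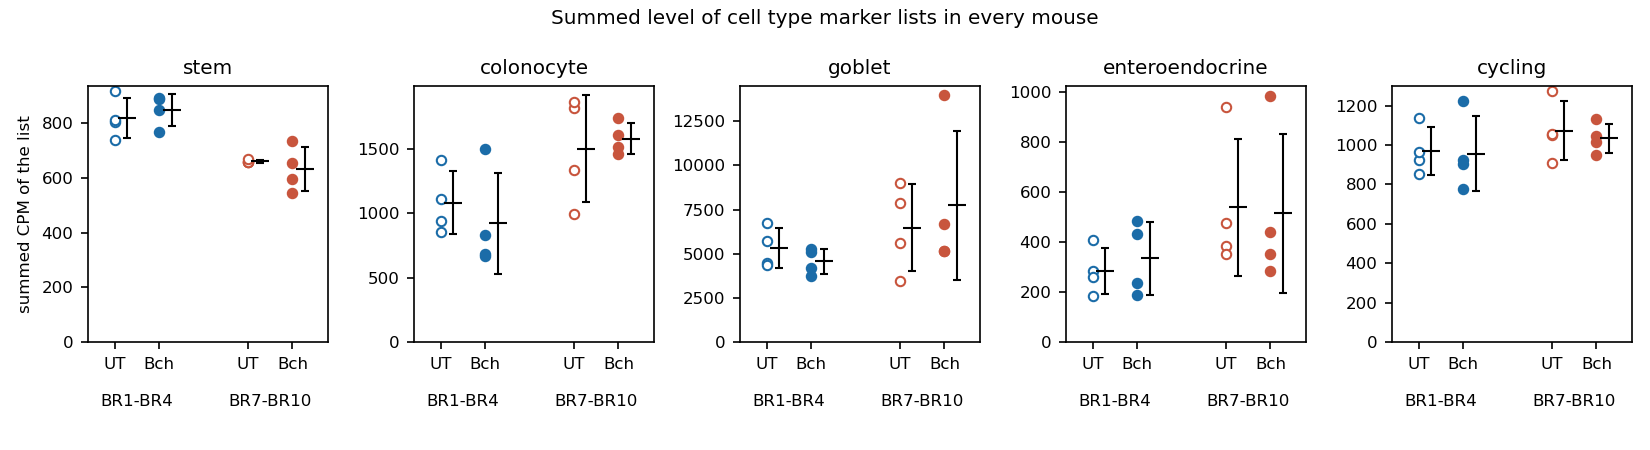
Summed level of 5 marker lists (vertical axes, TMM-scaled CPM) in every mouse, for untreated (UT, open) and Bch-treated (filled) cells of BR1-BR4 (blue) and BR7-BR10 (red), with the mean and SD of 4 mice in black. The stem cell sums of untreated cells, 657 to 669 in BR7-BR10 and 737 to 915.0 in BR1-BR4, do not overlap.

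The members were also compared with each other within groups. Over the 16 sums, with each group's mean removed, the 45 pairs of members had a median Pearson r of 0.10 between -0.66 (Myc and Ctnnb1) and 0.61 (Rnf43 and Ctnnb1), 29 of them above 0. The points share mice and differ in depth, and Znrf3, Tcf7 and Nkd1 rest on few UMIs, so these values describe the sums only. Axin2 had its highest r among members with Lrp6 (0.50, rank 350 of 10279 genes) and Rnf43 (0.44, rank 581). The 5 genes most like Axin2 by this measure were Phf20l1 (0.88), Aste1 (0.87), Atxn3 (0.85), 2510039O18Rik (0.84) and Mbnl3 (0.79). They were picked as the highest of 10279 values, each over only 16 sums, and whether such values exceed chance was not tested. Over the 16 sums, Aste1 had 177 UMIs and Mbnl3 384.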

How the data were processed

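The authors deposited raw UMI counts per gene and library, not normalized, for 23517 genes of 32 mouse libraries. Per the study's methods, cDNA was primed with barcoded oligo-dT and sequenced, and reads were processed with the Drop-seq pipeline on GRCm38 with GENCODE M25. The labels name GRCh38 for all samples. The human libraries were not used here. How reads matching several genes were counted is not given in the sources used here.

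Technical replicates were summed per mouse and treatment. In R 4.3.3, edgeR 4.0.16 filtered genes by filterByExpr, scaled by TMM and fitted the robust quasi-likelihood test, with the mouse as a block for Bch and without it between sets. Genes with a p adjusted over all tested genes (Benjamini-Hochberg) under 0.05 were called. Standard errors and 95% intervals come from the fitted weights and quasi-dispersions, and ratios per mouse are log2 CPM with a prior count of 2. DESeq2 1.42.0 was the alternative. The fits were tested on simulated data. Of planted changes of 1 on the log2 scale, in genes of any level that passed the filter, 68.4% were called for Bch in BR7-BR10. For Bch in BR1-BR4 it was 71.3%, and for the interaction 40.4%. Figures were drawn with matplotlib 3.10.9.

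Pairing comes from the labels, which give 1 mouse per number. The deviations of the paired sums from their group means had correlations across genes between -0.02 and 0.26. Depth per sum was 557512 to 4050342 UMIs. A gene with 0 UMIs could reach 0.703 TMM-scaled CPM in the deepest and 5.24 in the shallowest sum, taking 3 UMIs as the limit, for counting error only.

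The members and lists were chosen with earlier results of these data known. Besides the 10 members, the text names the list genes past the threshold in any of the 5 planned comparisons as fitted here, not under its alternatives, those with the 2 lowest p per list in each set where they bear on a result, and the 5 genes most like Axin2. Sp5, Sox9 and Tcf7l1, which passed in the added comparison of the Bch-treated sets, were named after their values were seen, as were the marker genes. Gene positions are from GENCODE M21 on GRCm38.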

Additional observations from a re-analysis of the deposited data

Results flagged for a closer look

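Of 60 groups of 4 values examined for a single value far from the others, 2 were flagged, and chance flags about 1 in 20. Both concern Tcf7l2 in BR1-BR4. In untreated cells, mouse 3 had 10.5 CPM against 16.8 to 17.3 CPM in the other mice, a gap of 0.916 of the range, from 6 UMIs in the shallowest sum. The log2 ratio of Bch over untreated was 1.12 in mouse 3 and -0.37 to -0.16 in the others, a gap of 0.861 of the range, and both values share that untreated sum. Without mouse 3, the log2 fold change of Bch on Tcf7l2 in BR1-BR4 was -0.24.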

How the results depend on the processing

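The counts of genes past the threshold over the whole table moved as follows, and the cause was not tested. For Bch in BR1-BR4, 2 genes became 14 with DESeq2, 88 without a filter, 9 with the first technical replicate alone, 0 without the block of paired mice, and 0 to 19 without 1 mouse. In BR7-BR10, 0 became 0 to 4 without 1 mouse. For the interaction, 0 became 1 without a filter. Over 8 pairs, 0 became 15 without a filter, 1 with the first replicate alone, and 0 to 1 without 1 mouse. Between untreated sets, 150 became 234 without a filter and 74 to 210 without 1 mouse. Between Bch-treated sets, 199 became 324 and 92 to 469. No member had an adjusted p under 0.05 for Bch under these settings, but DESeq2 gave none of the 10 an adjusted p in BR1-BR4.

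Directions reversed for members near 0, none of them called. For Bch in BR1-BR4, Nkd1 was 0.10 with DESeq2, 0.016 without a filter and 0.039 with the second replicate alone, Tcf7l2 was -0.0048 with DESeq2's size factors and -0.11 with the first replicate alone, and Ctnnb1 was 0.0049 without a filter, 0.041 with the first replicate alone and 0.0048 without the block. In the interaction, Znrf3 was 0.044 with DESeq2, and Lgr4 was -0.0036 without a filter, -0.12 with the second replicate alone and -0.039 without the block. Over 8 pairs, Axin2 was 0.081 with the first replicate alone and 0.0087 without the block. Between untreated sets, Tcf7l2 was -0.0043 with the first replicate alone. Values that kept their sign also moved between the technical replicates. For Bch in BR7-BR10, Axin2 was 0.43 with the first and 0.057 with the second replicate alone, and Lrp6 was -0.41 and -0.14.

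Without 1 mouse, the log2 values of members whose sign changed ranged as follows. For Bch in BR7-BR10, Myc ran from -0.18 to 0.044. For Bch in BR1-BR4, Tcf7 ran from -0.67 to 0.077, Ctnnb1 from -0.16 to 0.081, Nkd1 from -0.17 to 0.23, Tcf7l2 from -0.24 to 0.14, Myc from -0.0076 to 0.10 and Lgr4 from -0.0046 to 0.37. In the interaction, Znrf3 ran from -0.44 to 0.62, Lgr4 from -0.13 to 0.24 and Rnf43 from -0.078 to 0.44. Over 8 pairs, Axin2 ran from -0.13 to 0.11, Tcf7 from -0.089 to 0.35 and Myc from -0.067 to 0.039. Between untreated sets, Tcf7l2 ran from -0.14 to 0.25, Nkd1 from -0.82 to 0.19, Lgr4 from -0.053 to 0.26 and Lrp6 from -0.27 to 0.0086. Members that kept their sign moved as well. For Bch in BR7-BR10, Axin2 ran from 0.14 to 0.62, Tcf7 from 0.14 to 1.18, Znrf3 from 0.056 to 1.08, Lrp6 from -0.48 to -0.087, Rnf43 from -0.38 to -0.11, Lgr4 from 0.074 to 0.28 and Ctnnb1 from 0.17 to 0.31. For Bch in BR1-BR4, Axin2 ran from -0.50 to -0.08, Rnf43 from -0.67 to -0.16 and Znrf3 from 0.14 to 0.61. In the interaction, Axin2 ran from 0.34 to 0.93, Tcf7 from 0.36 to 1.40, Tcf7l2 from 0.30 to 0.68, Ctnnb1 from 0.18 to 0.45, Lrp6 from 0.070 to 0.47, Nkd1 from -0.81 to -0.32 and Myc from -0.23 to -0.0054.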
